A study of Mus musculus with 2 samples.

Results

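H3K4me3, trimethylation of histone H3 at lysine 4, is a mark found mainly at active and poised gene starts. It was mapped by chromatin immunoprecipitation and sequencing in NOS1+ neurons, the nitrergic neurons that relax gut muscle, sorted from the small intestine of mice. The series held 1 H3K4me3 library and 1 input chromatin library, both of the same sorted cells, with no genotype, strain, age or treatment given in the labels. How the neurons were marked for sorting is not stated there either. The cilium and flagellum genes described here were chosen by symbol, as all mouse protein-coding genes named Ift, Bbs, Cfap, Dnah, Dnai or Rsph with a number. There were 78 of them among 21887 protein-coding genes, and no gene of the table used carried a Dnai symbol. The symbols alone set the membership, but the set and its division into classes were proposed with peaks of this list already seen, so the counts and levels below are descriptions without a test.

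Most vertebrate cells, neurons included, can carry a single immotile primary cilium, which serves as a receiver for signals such as Hedgehog. It is built by intraflagellar transport, in which trains of IFT proteins move cargo along the microtubules, and its membrane proteins are sorted by the BBSome, a complex named after Bardet-Biedl syndrome. Motile cilia and sperm flagella need further parts, including the dynein arms that make the microtubules slide, the radial spokes and the central pair. Those parts are made mainly in multiciliated epithelia and in the testis. The 22 Ift and Bbs genes are called primary cilium genes below, and the 56 Cfap, Dnah and Rsph genes motile cilium genes. The division is by name, and motile cilia use intraflagellar transport as well. Nor does a Cfap, Dnah or Rsph symbol alone show that a gene serves motile cilia only.

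All 22 primary cilium genes carried an H3K4me3 peak, and so did 46 of the 56 motile cilium genes (82.1%). A gene counted as marked if a peak overlapped its model, or the 1 kb on either side of it, by 1 bp or more. By the same rule 67.0% of all protein-coding genes had a peak. The classes differed more in the strength of the peaks than in their presence. Taking the strongest peak of each gene, the median score was 165.6 over the primary and 79.29 over the motile genes with a peak, against 152.6 over all protein-coding genes with a peak. The score is the authors' value for each peak in the deposited list, on a scale not given in the sources used here, and it is used only to rank peaks within that list. Among the 25% of peaks with the highest scores, 16 of the 22 primary genes (72.7%) and 14 of the 56 motile genes (25%) still had one, and 37.3% of all protein-coding genes did. In both classes some of these peaks covered the start of another protein-coding gene. The single library allows no replicate check of any of these values.

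**Figure D1:**
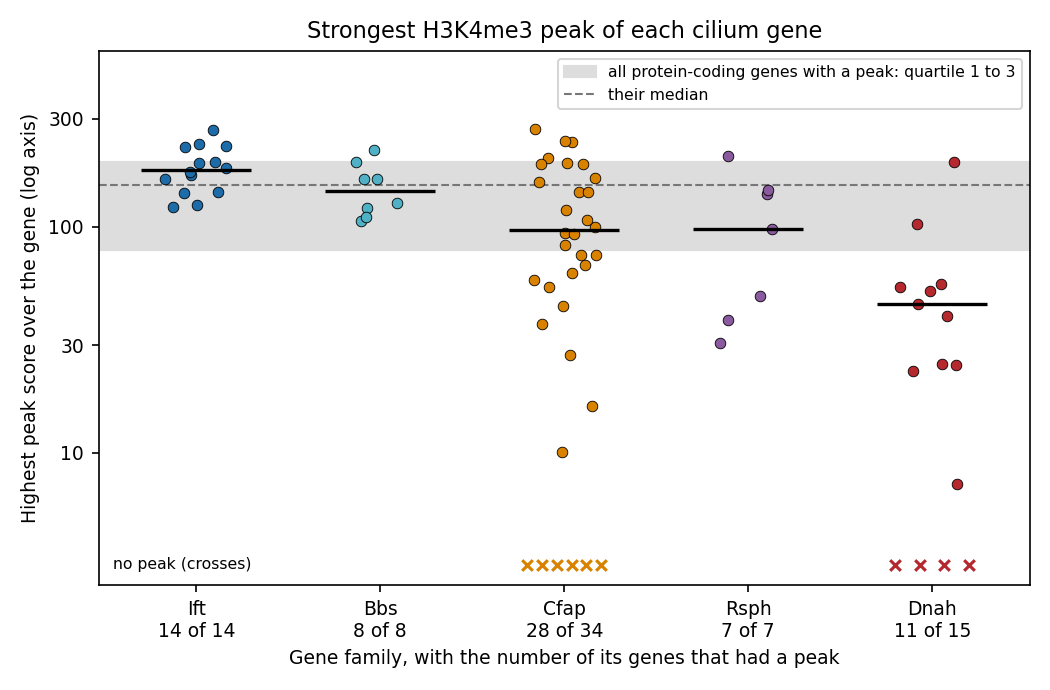
Highest peak score over each cilium gene (log axis) by gene family. Points are genes, black bars are family medians over genes with a peak, crosses are genes without a peak (placed below the axis range of the scores), and the grey band spans the quartiles of all protein-coding genes with a peak. The Ift and Bbs points lie between 105.8 and 266.8, while the Dnah points centre on 45.55.

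The promoters of the cilium genes fell into CpG-rich and CpG-poor sequences. As background, CpG-rich starts carry H3K4me3 in most cell types. Promoter sequences of RefSeq (GRCm38.p6, which has the chromosome coordinates of mm10), reaching from 250 bases before to 50 bases after each start, were found for 65 of the 78 genes. Cfap53, Cfap54, Cfap65, Cfap73, Cfap97, Cfap157, Cfap299, Dnah3, Ift80, Ift81, Ift122, Rsph1 and Rsph4a had no entry. The 250 bases before the start of 4 genes are printed to show what CpG-rich and CpG-poor promoters of members look like, with every CG in capitals. Ift172 is a CpG-rich primary cilium gene with a peak, Dnah7b a CpG-poor dynein gene with a peak, and Dnah12 and Cfap97d2 are the CpG-poorest members and had no peak. They lie at chr5:31291115-31291364 (minus strand), chr1:46066603-46066852 (plus), chr14:26691304-26691553 (plus) and chr8:13705639-13705888 (plus).
Ift172: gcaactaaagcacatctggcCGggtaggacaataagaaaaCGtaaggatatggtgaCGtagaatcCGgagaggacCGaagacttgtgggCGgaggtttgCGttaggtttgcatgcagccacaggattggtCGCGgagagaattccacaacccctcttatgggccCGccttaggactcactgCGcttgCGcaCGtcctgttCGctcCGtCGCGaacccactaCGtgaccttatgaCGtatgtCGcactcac
Dnah7b: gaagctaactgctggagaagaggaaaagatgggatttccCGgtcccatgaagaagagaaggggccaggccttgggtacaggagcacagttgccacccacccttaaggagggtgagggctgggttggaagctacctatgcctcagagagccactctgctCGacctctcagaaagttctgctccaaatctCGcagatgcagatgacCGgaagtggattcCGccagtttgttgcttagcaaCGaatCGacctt
Dnah12: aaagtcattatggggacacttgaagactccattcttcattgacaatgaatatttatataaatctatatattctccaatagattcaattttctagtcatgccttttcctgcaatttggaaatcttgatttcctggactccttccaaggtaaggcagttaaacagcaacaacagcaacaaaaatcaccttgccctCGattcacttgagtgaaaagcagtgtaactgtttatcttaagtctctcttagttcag
Cfap97d2: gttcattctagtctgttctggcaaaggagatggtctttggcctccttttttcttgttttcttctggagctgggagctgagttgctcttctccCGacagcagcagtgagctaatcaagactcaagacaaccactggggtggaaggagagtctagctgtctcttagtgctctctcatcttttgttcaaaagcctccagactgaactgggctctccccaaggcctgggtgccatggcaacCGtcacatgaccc
These stretches hold 20 CpGs for Ift172, 7 for Dnah7b, 1 for Dnah12 and 2 for Cfap97d2.

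A promoter was called CpG-rich when its observed to expected CpG ratio was at least 0.6 and its GC content at least 50% over the 300 bases. Such a promoter was found at 16 of 19 primary cilium genes (84.2%), at 21 of 46 motile ones (45.7%) and at 48.3% of all protein-coding genes in the table. Among the families the share ran from 87.5% for Bbs and 81.8% for Ift through 63.0% for Cfap and 40% for Rsph to 14.3% for Dnah, where 2 of 14 were CpG-rich. With a peak counted only within 1 kb of an annotated start, all 19 primary cilium genes of the table had one, as did 35 of the 46 motile genes (76.1%) and 63.0% of all protein-coding genes. In the CpG-rich class nearly all genes had a peak at a start, while the scores differed between the classes of genes. There 16 of 16 primary genes, 20 of 21 motile genes and 96.8% of all protein-coding genes had a peak at a start. The median highest score over CpG-rich genes with a peak was 168.6 for the primary genes (median width 1305.5 bp), 74.99 for the motile genes (977 bp) and 169.3 for all protein-coding genes (1619 bp). The motile median was close to 74.99 in the CpG-poor class too, at 75.18 over 19 genes with a peak, against 92.75 for all CpG-poor protein-coding genes. These scores were taken over the whole model. The strongest peak was not the one at an own start in 8 motile genes and 1 primary gene of the promoter table. Among the CpG-poor motile genes Cfap70 had 238.95 but 16.16 at its start, and Rsph14 139.98 but 4.99. The medians by CpG class therefore do not describe the starts alone. In the CpG-poor class the share with a peak at a start was higher for the cilium genes than for all genes. All 3 primary genes (Bbs4, Ift27 and Ift43) and 15 of 25 motile genes (60%) had a peak at a start, against 31.5% of all CpG-poor protein-coding genes. Of those 15 motile genes 13 had no end of another protein-coding gene within 1 kb of the peak, and Cfap52 and Cfap69 were the other two. The 3 primary genes lay close to the cutoffs, with ratios of 0.556 for Bbs4 and 0.591 for Ift27. Ift43 had a ratio of 0.704 and missed only the GC limit, at 49.33%. The ratios of the 15 motile genes ran from 0.375 (Dnah7b) to 0.594 (Rsph9). CpG content was not matched within the class. CpG-poor members sharing a family are not independent, and the difference from all CpG-poor genes was not tested.

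**Figure D2:**
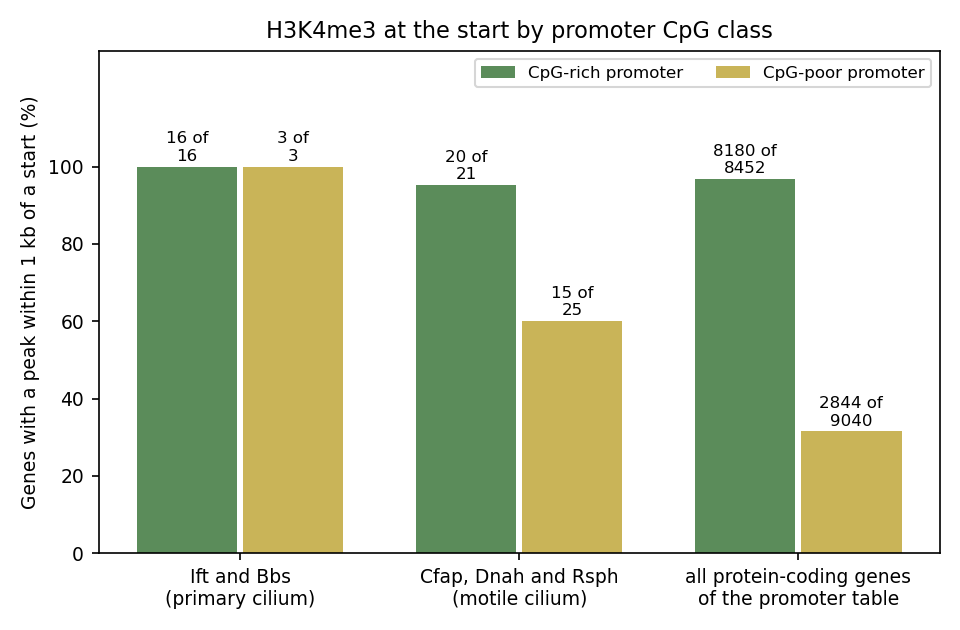
Share of genes with a peak within 1 kb of a start (per cent, axis from 0) for CpG-rich and CpG-poor promoters. Bars stand for primary cilium genes, motile cilium genes and all protein-coding genes of the promoter table, and the counts are printed above them. The CpG-rich bars are all above 95%, and the CpG-poor bars fall from 3 of 3 to 15 of 25 to 2844 of 9040.

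RFX transcription factors are known regulators of cilium genes and bind the X-box, whose arms resemble GTTGCC. These 6 letters were searched on both strands of the 300 bases. They occurred in 24 of the 65 promoters (36.9%), in 8 of 19 primary (42.1%) and 16 of 46 motile genes (34.8%), against 14.3% of all protein-coding genes in the table. The share was alike in both CpG classes, 37.8% of the CpG-rich and 35.7% of the CpG-poor members, against 14.8% and 13.9% of all genes. A match is a run of letters and not a binding site. The motif TGTTTAC, the core bound by forkhead factors such as FOXJ1, occurred in 3 of the 65 promoters (4.62%), against 3.45% of all genes. Stretches of 30 bases around GTTGCC or its reverse complement GGCAAC are printed for 9 genes to show the letters at members of each class and in the related Dnah7 genes. Capitals mark the match, and the number after the name is the position of its first base, counted from the start site as 0.
Bbs7 (-121, chr3:36613493-36613522, minus strand): gaatgcgccccgGTTGCCttggaaaccggc
Ift140 (-109, chr17:25015965-25015994, plus strand): gcgtgttgtgacGGCAACctcgcgcccttg
Cfap20dc (-102, chr14:8666375-8666404, minus strand): acaagcccctcaGTTGCCtgggcaacggct
Cfap298 (-69, chr16:90934901-90934930, minus strand): caatgtttgactGTTGCCcctggcaacagc
Cfap44 (-19, chr16:44394768-44394797, plus strand): ggacgttgctatGGCAACcgcagtaaacgg
Cfap97d2 (-19, chr8:13705858-13705887, plus strand): cctgggtgccatGGCAACcgtcacatgacc
Dnah7a (-200, chr1:53706967-53706996, minus strand): tcgctcctcacaGTTGCCtgccaccctctg
Dnah7b (-163, chr1:46066678-46066707, plus strand): tacaggagcacaGTTGCCacccacccttaa
Dnah7c (-219, chr1:46425287-46425316, plus strand): tcactcctcagaGTTGCCttccaccctctg
In Cfap20dc and Cfap298 the motif was followed within a few bases by its reverse complement. The letters did not go with a peak in every case. Cfap97d2 and Cfap161 held them and had no peak, and among CpG-poor members 7 of 10 with the motif and 11 of 18 without it had a peak at a start.

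The intraflagellar transport genes were marked without exception and with high scores. Their highest scores ran from 121.7 to 266.8 with a median of 178.2, and 10 of the 14 lay above the median of all protein-coding genes with a peak. IFT-A, the complex that carries cargo back to the base, was represented by Ift140, whose widest peak measured 2502 bp with a score of 228.46, by Ift43 with 1006 bp and 143.06, and by Ift122 with 751 bp. Ift122 had its highest score, 125.16, in a second peak of 748 bp. The Ift140 maximum lay before the start of the gene and covered the start of the neighbouring Cramp1l. A further peak, 1513 bp wide and scored 128.13, covered the start of Ift140 itself.

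IFT-B, which carries cargo toward the tip, supplied the other 11 genes. Ift74, a core subunit that with Ift81 binds tubulin, had the highest score of the family, 266.76, in a peak of 1427 bp. That peak covered the start of Plaa and lay at the lower end of the Ift74 model, while the annotated Ift74 start in the promoter table had 1104 bp scored 201.79. Ift80 had 2386 bp scored 232.17 that also lay at an end of Smc4, and Ift81 one of 1061 bp with 225.37. Ift88, the gene disrupted in the Oak Ridge polycystic kidney mouse (chromosome 14, 57424064 to 57517936, mm10), had 1 peak, 1338 bp wide and scored 193.73, across its start.

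The remaining IFT-B genes lay close together. Ift52 had 1471 bp with a score of 192.36, Ift46 had 1166 bp with 174.59, and Ift27, a small GTPase gene, had 881 bp with 168.56. Ift57 had 1052 bp with 162.69, and Ift22, another small GTPase gene, had 1124 bp with 141.22. Ift172, the largest subunit of the group, had the lowest score of the family, 121.73, in a peak of 1521 bp. Ift20, which also acts at the Golgi, had 1083 bp scored 181.84 that ended 144 bp before its start and one of 961 bp with 160.21 that began 33 bp after it, so that the start itself lay in neither.

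The 8 Bbs genes were as uniform. Each had a peak at an end of its model, as did 61.4% of all protein-coding genes. The widest peaks of the 8 measured from 696 to 1438 bp, and their highest scores ran from 105.8 to 219.4. Among the 6 genes of BBSome subunits, Bbs2 stood highest with 219.37 in 1438 bp. It was followed by Bbs5 with 162.25 in 1331 bp, Bbs7 with 126.87 in 1280 bp and Bbs1 with 120.91 in 696 bp. Bbs9, whose model is the longest of the family at 413 kb, had a single peak, of 1164 bp with 110.34 at its start, and Bbs4 had 105.84 in 1241 bp. The chaperonin-like genes Bbs12 and Bbs10, whose products help to assemble the BBSome, had scores of 192.66 in 1374 bp and 162.65 in 1181 bp. The Bbs12 peak also covered the start of Cetn4, a centrin gene. No Bbs peak was wider than the median of all protein-coding genes with a peak, 1515 bp, and only Ift140, Ift80 and Ift172 among the Ift genes were. The primary cilium genes combined scores around the median of all genes with narrower single peaks, at a median width of 1211 bp for the widest. Some had adjoining peaks that were counted apart, such as those of 1083 and 961 bp at Ift20. Widths with adjoining peaks joined are not given here for all genes, so the marked stretches as a whole were not compared.

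Axonemal dynein heavy chain genes, which encode the motors of the arms, had the weakest marks. Of 15 Dnah genes 11 had a peak (73.3%), but only 8 had one at an end of the model (53.3%, against 61.4% of all protein-coding genes). These genes are long, with a median model of 238 kb. Among all protein-coding genes of at least 100 kb, 91.6% had a peak over the model and 78.0% one at an end, whereas 10 and 8 of the 14 Dnah genes of that length did (71.4% and 57.1%). The median highest score over the 11 was 45.55.

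Of the outer arm genes, Dnah9 had 594 bp with a score of 55.58 and Dnah11 had 998 bp with 52.10, both across the start. Dnah5, a frequent site of mutation in primary ciliary dyskinesia, had 3 peaks, the strongest of 735 bp with 53.93, all of them more than 20 kb before the start in the promoter table. One of them, of 221 bp with 11.57, lay at the lower end of the gene model. Dnah8, a testis dynein, had 547 bp with 23.06 inside the model, 31033 bp beyond its start, and Dnah17, also of the sperm tail, had none.

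The inner arm genes were more unequal. Dnah7b had a score of 193.03 in 955 bp at its start (chromosome 1, 46066071 to 46373551, mm10), above all other Dnah genes, while the related Dnah7a and Dnah7c had 40.21 in 515 bp and 45.55 in 491 bp. These genes are close relatives, and how reads that match several copies were placed is not given in the sources used here, so the split among them is uncertain. Dnah2 had its highest score, 102.74 in 1676 bp, beyond the far end of its model beside Kdm6b, with a further peak of 1199 bp with 81.36 inside the model, 1733 bp after its start. Dnah6 had 525 bp with 24.74, Dnah1 had 520 bp with 24.48, and Dnah10 had 193 bp with 7.32, the only cilium gene with a peak whose widest was under 300 bp. The next narrowest was Cfap299 with 456 bp. Dnah3, Dnah12 and Dnah14 had no peak.

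All 7 radial spoke genes had a peak at an end of the model. Their highest scores, taken over the whole model, ran from 30.51 to 206.3. Rsph3a and Rsph3b, a pair of related copies that can share reads, had 206.27 in 1431 bp and 144.93 in 1217 bp. Rsph9, of the spoke head, had 97.68 in 1376 bp. The other spoke head genes were weaker, with 49.61 in 686 bp for Rsph1, 38.83 in 716 bp for Rsph4a and 30.51 in 723 bp for Rsph6a, a sperm gene whose peak lay beyond its model beside Dmwd. The score of 139.98 in 1995 bp of Rsph14 came from a peak inside its model at an end of Gnaz, whereas the Rsph14 start had 153 bp with a score of 4.99.

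The Cfap genes, named after cilia- and flagella-associated proteins of many kinds, varied widely. Of 34, 28 had a peak (82.4%), with a median score of 97.24 and extremes of 10.09 and 270.8. Several of the highest values lay where another gene starts. Cfap52, whose product lies inside the doublet microtubules, had 270.82 in 1754 bp over a start of Stx8. Cfap61 had 201.62 in 1355 bp over a start of Crnkl1, and Cfap57 had 142.76 in 1536 bp over one of Ebna1bp2. For Cfap70 (238.95, widest peak 674 bp) and Cfap206 (192.36 in 1474 bp) the peaks lay beyond the far end of the model, over the starts of Mrps16 and Slc35a1, and their own starts had scores of only 16.16 and 52.17. The wide peak of Cfap99, 2039 bp with 67.57, covered a start of Zfyve28.

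At other Cfap genes the strongest peak held no other protein-coding start. Cfap36 had 236.26 in 1199 bp, Cfap97 had 190.34 in 1703 bp, Cfap410 had 188.89 in 837 bp and Cfap298 had 164.39 in 977 bp. Cfap300, a factor for the assembly of dynein arms, had 156.97 in 1250 bp. Cfap20, needed at the inner junction of the doublet microtubules, had the widest peak of the family, 2416 bp with 142.89, and Cfap77 had 1230 bp with 74.99, a score below the family median. At the low end stood Cfap47 with 10.09, Cfap44 with 16.16 and Cfap58 with 27.24. Cfap53, Cfap65, Cfap73, Cfap97d1, Cfap97d2 and Cfap161 had no peak.

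**Figure D3:**
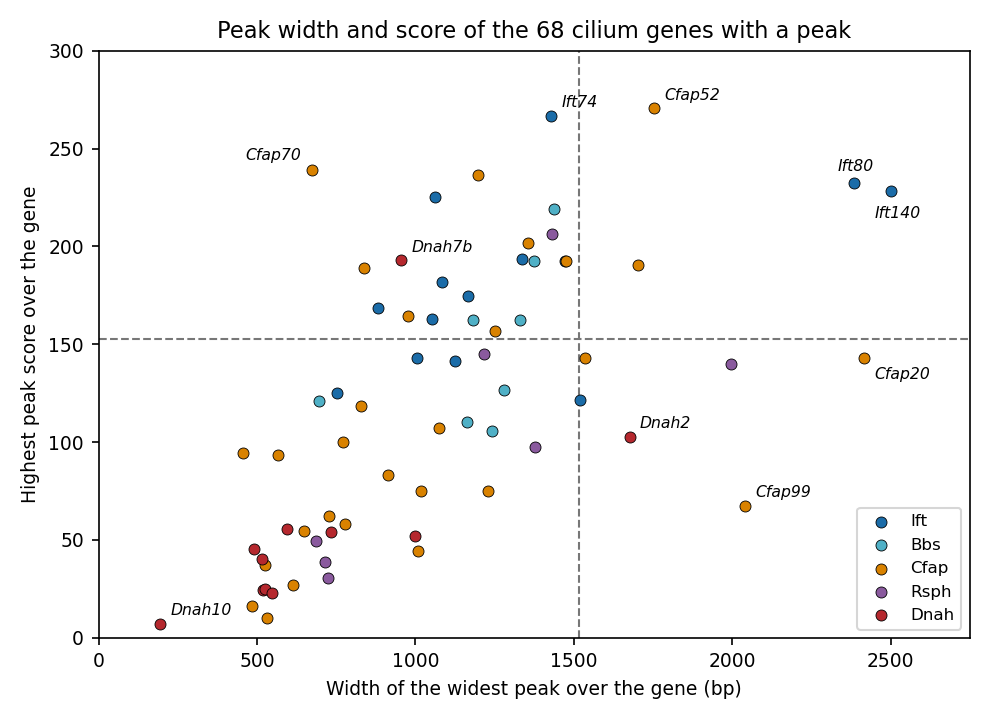
Width of the widest peak (bp) against the highest peak score for the 68 cilium genes with a peak, coloured by family. The 2 values of a gene can come from different peaks, and dashed lines are the medians over all protein-coding genes with a peak, 1515 bp and 152.6. Most points lie left of the width line, with the Dnah genes at the lower left except Dnah7b and Dnah2.

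Over the 68 genes with a peak, width and score went together, with a Spearman correlation of 0.68, and over all 14665 protein-coding genes with a peak the correlation was 0.45. Both are across genes of 1 library and describe it only. The 10 genes without a peak were all of the motile class, and the 6 of them with a promoter entry (Cfap97d1, Cfap97d2, Cfap161, Dnah12, Dnah14 and Dnah17) were all CpG-poor. Genes without a peak were mostly CpG-poor in the whole promoter table too. There 97.3% of the CpG-rich and 38.3% of the CpG-poor protein-coding genes had a peak over the model.

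The strongest peak at the start covered it in 17 of 19 primary and 32 of 35 motile genes with such a peak. Counting any peak, a start was covered in 18 primary and 32 motile genes. The same held for 9777 of the 11024 protein-coding genes with a peak at a start, so this was not particular to cilium genes. The strongest peak reached, by median, from 463 bp before to 784 bp after the start in the primary class. In the motile class it reached from 327 bp before to 419 bp after it. The median score of this peak was 162.7 for primary and 67.57 for motile genes, against 156.1 for all protein-coding genes. By family it was 174.6 for Ift, 144.6 for Bbs, 121.3 for Rsph, 75.09 for Cfap and 45.55 for Dnah. In 9 of the 54 genes, Ift20, Ift27, Ift57, Ift74, Ift140, Cfap36, Cfap58, Cfap298 and Cfap410, 2 separate peaks lay within 1 kb of a start. The same share over all protein-coding genes was not computed, so this is not read as particular to cilium genes.

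**Figure D4:**
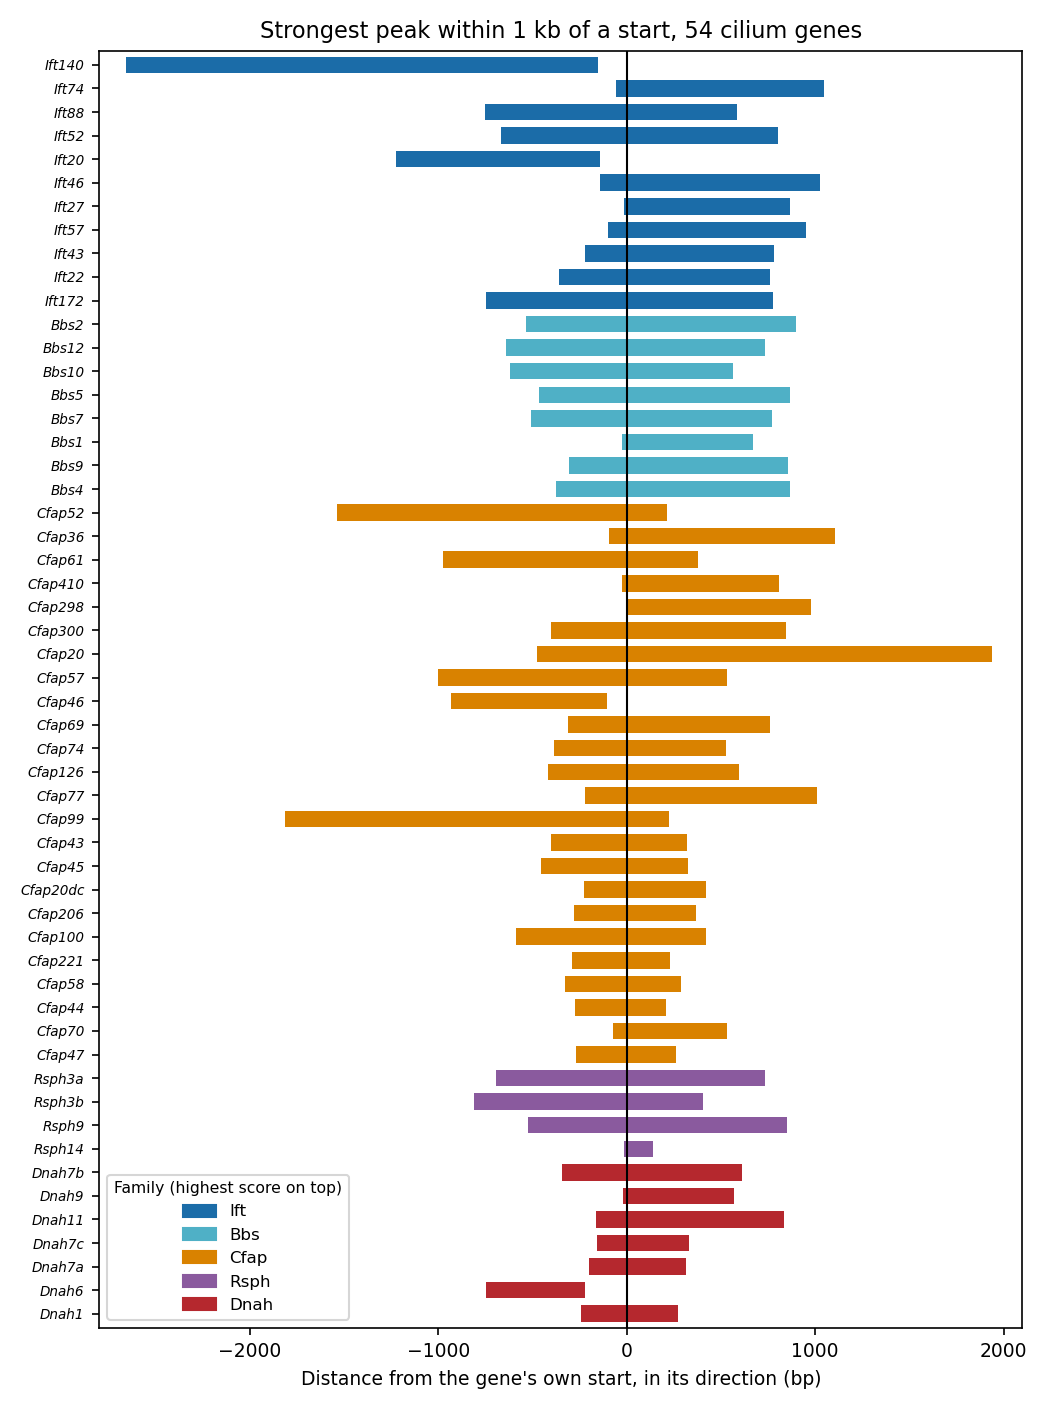
Extent of the strongest peak within 1 kb of an own start, in bp from the start in the direction of the gene (0 is the start, positive values lie inside the gene), for the 54 cilium genes with such a peak. Bars are peaks, coloured by family and ordered by score within a family. Most bars cross 0, and those of the Dnah genes are short.

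Shared ends with other genes touched both classes. The strongest peak lay within 1 kb of an end of another protein-coding gene model in 9 of 22 primary and 11 of 46 motile genes. The share over all protein-coding genes was not computed, so whether these counts are unusual is not known. Where no end of another gene was near, the median score was 162.7 for primary and 57.99 for motile genes. Where one was near it was 181.8 and 140.0. All peaks of Bbs1, Bbs10, Bbs12, Ift20, Ift80, Ift122, Ift172, Cfap52, Cfap57, Cfap69 and Rsph6a lay near another gene's end. For these the mark cannot be assigned to the cilium gene alone.

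Further cilium genes outside the symbol rule were taken from lists of textbook components, written with earlier results of this peak list known. The counts below stand against 67.0% of all protein-coding genes with a peak over the model and 61.4% with one at an end, and the median scores against 152.6. Of 27 other genes of primary cilium transport 26 had a peak (median score 169.1), among them Hspb11 with 2244 bp, Ttc21b with 1665 bp, Cluap1 with 1619 bp and Wdr35 with 1587 bp. Ttc30a2 had none, and its near copies Ttc30a1 and Ttc30b had peaks of 960 and 1422 bp, a family whose reads may be divided by the mapping. All 25 genes of the transition zone and basal body, the gate at the base of the cilium, had a peak at an end (median score 168.1), led by B9d2 with 3310 bp, Nphp4 with 2207 bp, Cep83 with 2095 bp and Tctn2 with 2003 bp. Of 12 genes of ciliary signalling 11 had a peak (median score 131.3, with 3 genes above 152.6), against the same 67.0% of all genes. Its Hedgehog pathway genes had widths of 4607 bp (Ptch1), 2929 bp (Gli3), 2704 bp (Gli2), 2493 bp (Smo), 1768 bp (Gli1) and 1353 bp (Sufu). Sstr3, a somatostatin receptor of neuronal cilia, had none.

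Of 31 other motile cilium genes 26 had a peak (83.9%, against 67.0% of all protein-coding genes), with a median score of 118.8. Dnali1 (2466 bp), Ccdc151 (2209 bp), Ccdc114 (2048 bp) and Ccdc40 (1979 bp) were the widest. Spag17, Drc7, Tekt3, Ak7 and Dnajb13 had no peak. All 11 dynein assembly genes found in the table had one (median score 121.3), with Dnaaf2 at 2305 bp, Ccdc103 at 1680 bp, Pih1d2 at 1524 bp and Pih1d1 at 1410 bp the widest. Ccdc103 stands in both lists.

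The labelled cell type was checked by markers. All 8 neuronal markers had a peak, and so did all 6 glial and all 6 smooth muscle markers and 4 of 7 epithelial ones, with none at Krt20, Vil1 and Muc2. Of all protein-coding genes 67.0% had one. The median of the highest scores was 78.65 for the neuronal, 58.6 for the glial, 16.38 for the smooth muscle and 26.56 for the epithelial markers with a peak, all below the 152.6 of all protein-coding genes with a peak. By median width the glial markers came first, with 2166.5 bp, then the neuronal with 1794.5 bp, the epithelial with 851.5 bp and the smooth muscle ones with 725 bp. The highest single score was 194.7 at the glial Erbb3, against 147.9 at the neuronal Hand2. The part of other cell types in the marks at cilium genes was not tested. In chromatin from a sorted pool, a mark in few cells and a weak mark in many cannot be told apart.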

How the data were processed

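H3K4me3 peaks of 1 immunoprecipitated library of sorted NOS1+ enteric neurons were analysed, and the input library was not analysed here. Per the file headers, MACS2 called the peaks on paired-end reads. Each entry of the deposited list is a position with a score. The submitters' processing notes name BWA, Picard, MACS2 and mm10 but no version. The calling threshold and the meaning of the score are not stated in them. The list held 29924 peaks on 21 chromosomes, with a median width of 690 bp. The read depth is unknown, so weak peaks may have been missed and no interval based on depth was computed.

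Gene models came from RefSeq (GRCm38.p6), without strand, and start sites and promoters from its promoter table, which held 17492 of the 21887 protein-coding genes. Overlaps, widths, CpG content and motifs were computed in Python 3.11.15 with pandas 2.3.3 and numpy 2.4.6, and the overlap code was tested on simulated data. Peak positions are 1-based. For genes with several annotated starts, any start counted. The members, lists and classes were chosen with earlier results of these data known. Named are all Ift and Bbs genes, the Dnah and Rsph genes with a peak, the 10 Cfap genes with the widest and the 5 with the strongest peaks, genes against the majority of their family, and up to 4 genes per further list. Others, such as the weakest Cfap genes and those shown in figures or sequences, were chosen after their values were seen. With 1 library no test between conditions was possible.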

Additional observations from a re-analysis of the deposited data

How the results depend on the processing

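The primary cilium genes had the higher share with a peak under every alternative except among members with a CpG-rich promoter (added after seeing the data), where all genes of both classes had a peak (100%) and the difference was 0 percentage points, from 17.9. In the 50% of the peak list with the better scores the motile share was 67.9% and the difference 32.1 points. In the best 25% it was 25% against 72.7% for the primary genes, 47.7 points apart. The medians of the motile genes left, 1302.5 bp with a score of 191.3, were above those of the primary genes left, 1256 bp with 187.1. For Cfap52, Cfap57, Cfap61, Cfap70 and Cfap206 the strongest peak covered another protein-coding gene's start, as it did for the primary genes Bbs12, Ift74 and Ift140. At their own starts Cfap70 and Cfap206 scored only 16.16 and 52.17. Without the Cfap genes the median score of the motile class was 50.86. Among models of at least 100 kb (added after seeing the data) the median widths were 1775 bp for 2 primary genes and 580.5 bp for the motile ones. Windows of 0 or 5 kb, model ends, start sites, an overlap of 150 bp, peaks of at least 300 bp and members away from other genes' ends left the class shares within their 95% binomial intervals. Those intervals are wide, 84.6 to 100% for the primary and 69.6 to 91.1% for the motile genes. They treat the genes as independent, and the same genes were counted again, so this is not a test of stability. Merging peaks closer than 1 kb changed the widest peak by over 1.5 times in 13 of 68 genes. No paired analysis was possible because the series holds 1 immunoprecipitated library. The depth is unknown, and no value has a replicate.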

Other observations

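The 7 Rfx genes looked up, Rfx1 to Rfx7, all had a peak over the model, against 67.0% of all protein-coding genes. Their family includes regulators of ciliation such as Rfx2 and Rfx3. The highest scores were at Rfx1 (258), Rfx3 (244.4), Rfx5 (210.9) and Rfx2 (187.8), then Rfx7 (132.8), and low ones at Rfx4 (17.61) and Rfx6 (3.822). Of the 8 regulators of multiciliated cells 7 had a peak, with a median score of 45.37, against 152.6 for all protein-coding genes with a peak. Foxj1, the master regulator of motile cilia, had 1343 bp with a score of 114, Ccno 1283 bp with 74.25, Cdc20b 1478 bp with 78.59, Myb 1891 bp with 45.37 and Trp73 1721 bp with 31.31. Mcidas had 289 bp with 13.51 and Deup1 170 bp with 6.285, and Gmnc had no peak. The 7 of them in the promoter table all had CpG-rich promoters.

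Genes of the sperm tail and sperm chromatin were mostly without a peak. Of 18, only Odf2 (1408 bp, score 226) and Catsper2 (1949 bp, score 208.4) had one, 11.1% against 67.0% of all protein-coding genes. Of the 16 of them with a promoter entry, 2 were CpG-rich (12.5%, against 48.3% of all protein-coding genes in the table). The dynein intermediate chain genes, which stand in the table under the older symbols Dnaic1 and Dnaic2 and so fall outside the symbol rule, had highest scores of 173.64 and 25.13.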
